A study of Mus musculus with 12 samples.

Results

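This report describes 8 sterol-regulated genes, chosen by symbol from 25239 gene symbols in each of the 2 deposited count tables of mouse heart cardiomyocytes: Hmgcs1, Idi1, Fdft1, Sqle, Lss, Cyp51 and Dhcr7, which encode enzymes of cholesterol synthesis, and Insig1, which encodes a regulator of the pathway. The labels' protocols describe cultured cardiomyocytes, so the levels are not those of intact heart. None of the 8 encodes an uptake receptor, so uptake was read from a separate list. By the design text, Chaf1a cko mice carried floxed Chaf1a (f/f) and Myh6-Cre, in which the Myh6 promoter of cardiomyocytes drives the recombinase. Ctrl mice carried the f/f alleles alone, so effects of Cre and of the deletion cannot be told apart, and the genotype label of the Ctrl libraries reads WT. The first set held Chaf1a cko and Ctrl, and the 3M set held Chaf1a cko 3M and Ctrl 3M, with 3 libraries in each of the 4 groups. No age is stated for the first set, and 3M is not spelled out. The title of the study names perinatal loss of Chaf1a, the large subunit of the histone chaperone chromatin assembly factor 1, and polyploid cardiomyocytes. The comparison asks whether sterol genes differed with the genotype label in either set.

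Animal cells make cholesterol from acetyl units by way of mevalonate, isoprenoids, squalene and lanosterol. When sterol in the endoplasmic reticulum runs low, the membrane-bound factors SREBP are escorted by SCAP to the Golgi, cut, and sent to the nucleus, where they raise the transcription of most enzymes of this route and of genes for sterol uptake. INSIG proteins hold SCAP back when sterol is plentiful, and Insig1 is itself an SREBP target, so that the genes of the route usually move together when cellular sterol changes.

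All 8 are protein-coding genes. On build GRCm38.p6 the annotation places Hmgcs1 at chr13:119690351-119708260 (plus strand), Idi1 at chr13:8885606-8892396 (plus strand), Fdft1 at chr14:63145150-63181687 (minus strand), Sqle at chr15:59315092-59331193 (plus strand). It places Lss at chr10:76531565-76557139 (plus strand), Cyp51 at chr5:4080674-4104697 (minus strand), Dhcr7 at chr7:143823167-143848410 (plus strand) and Insig1 at chr5:28071412-28078662 (plus strand). Genes on the opposite strand share exon bases with Hmgcs1, Idi1, Fdft1, Lss and Cyp51, and whether the counting used strand is not stated. Promoter windows from 250 bases before to 50 bases after each start site were available from RefSeq (build GRCm38.p6) for 6 of the 8 genes: Hmgcs1, Idi1, Lss, Cyp51, Dhcr7 and Insig1. Dhcr7 had 3 windows and each of the others had 1. Both strands were searched for the letters TCACNCCAC, the core of the classical sterol regulatory element that SREBP binds, for CCAAT, the box bound by NF-Y, and for GGGCGG, the GC box. The sterol element core was found in 1 of the 8 windows of these 6 genes, that of Hmgcs1, and in 1.24% of all 32851 promoter windows. CCAAT was found in 6 of the 8 windows, against 37.4% of all windows, and GGGCGG in 7 of the 8, against 35.7% of all windows. Each of the 6 genes had at least 1 window with CCAAT and at least 1 with GGGCGG. No matches of different motifs overlapped. The promoters of 3 genes are shown because Hmgcs1 held the sterol element core and because Cyp51 and Insig1 were the genes whose libraries separated by genotype label in the first and in the 3M set. Capitals mark the sterol element core and CCAAT on either strand (ATTGG where it lies on the opposite strand).
Hmgcs1 promoter, chr13:119690101-119690400, plus strand: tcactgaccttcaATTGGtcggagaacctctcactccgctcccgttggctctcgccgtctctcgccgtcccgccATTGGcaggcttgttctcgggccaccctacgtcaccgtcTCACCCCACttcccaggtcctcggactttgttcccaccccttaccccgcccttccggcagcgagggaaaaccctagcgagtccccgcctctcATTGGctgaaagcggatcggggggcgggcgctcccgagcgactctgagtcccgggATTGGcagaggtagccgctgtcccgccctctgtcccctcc
Cyp51 promoter, chr5:4104648-4104947, minus strand: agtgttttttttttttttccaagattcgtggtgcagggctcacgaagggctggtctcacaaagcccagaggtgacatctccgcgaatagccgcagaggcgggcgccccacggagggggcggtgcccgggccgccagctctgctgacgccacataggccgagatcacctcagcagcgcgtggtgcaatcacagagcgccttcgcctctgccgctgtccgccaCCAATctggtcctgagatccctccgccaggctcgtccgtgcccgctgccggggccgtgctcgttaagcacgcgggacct
Insig1 promoter, chr5:28071162-28071461, plus strand: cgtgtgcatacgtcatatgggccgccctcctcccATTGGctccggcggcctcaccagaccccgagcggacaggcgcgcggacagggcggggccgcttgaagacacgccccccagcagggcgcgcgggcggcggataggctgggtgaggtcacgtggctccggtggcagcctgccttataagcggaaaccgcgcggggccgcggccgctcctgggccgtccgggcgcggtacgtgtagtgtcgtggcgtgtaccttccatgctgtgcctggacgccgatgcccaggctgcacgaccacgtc
In the Hmgcs1 window the core read TCACCCCAC and lay at bases 114 to 122 of the window, upstream of the start site, with CCAAT boxes on the opposite strand on both sides of it. A letter match describes these windows only, and binding was not measured.

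Library totals were 16529103 to 20879414 counts in Chaf1a cko, 15068468 to 20896673 in Ctrl, 10569325 to 15600479 in Chaf1a cko 3M and 11262660 to 16445963 in Ctrl 3M. Chaf1a itself was at 21.9 to 29.0 CPM (CPM here are counts per 1e6, scaled by TMM factors) in libraries labelled Chaf1a cko and at 18.8 to 32.3 CPM in Ctrl, and at 5.53 to 8.33 CPM in Chaf1a cko 3M and 1.87 to 9.74 CPM in Ctrl 3M. Its level did not separate the labels, and every direction given here is that of the labels. These are counts over the whole gene, and which exons are floxed is not stated by the labels. The cardiomyocyte identity of the libraries was checked on 8 markers, whose summed level was 56751 to 57215 CPM in Chaf1a cko, 60126 to 61788 CPM in Ctrl, 41048 to 45415 CPM in Chaf1a cko 3M and 28893 to 39538 CPM in Ctrl 3M. In the first set 3 of the 8 fell (Myh6, Actc1 and Ryr2) and 0 rose in Chaf1a cko, where 0.435% of all tested genes fell, and in the 3M set 0 passed. The other 5 had positive log2 fold changes in the first set, and the median of the 8 was 0.03. Of these 5, 2 were higher with no overlap, where 8.33% of all tested genes were. Y-linked genes summed to 115 to 133.9 CPM in Chaf1a cko and 50.02 to 61.1 CPM in Ctrl, so that in the first set sex mixture and genotype label cannot be told apart. Chemoreceptor genes, taken as silent in heart, had counts for 94.8% to 97.6% of 1523 genes in the first-set libraries and for 1.18% to 1.64% in the 3M libraries, and their 95th percentile of 2.79 CPM per kb of transcript serves as the background level of the first set. The labels do not tie libraries to animals, so the p-values reflect library-to-library spread that could be technical.

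In the first set, none of the 8 genes passed the test between Chaf1a cko and Ctrl libraries. By the quasi-likelihood test of edgeR, with p-values adjusted by Benjamini-Hochberg over all genes and a threshold of 0.05, 0 of 8 rose and 0 of 8 fell, 0 had an unadjusted p under 0.05, and DESeq2 also called 0. Over all 22965 genes tested the same test called 270, or 1.18% (0.74% higher and 0.435% lower), and 10.1% had an unadjusted p under 0.05. The genes tested include many at the background level. With at least 10 CPM required in at least 3 libraries, 366 were called (191 higher and 175 lower), from fewer genes. The called shares of 1.18%, 0.74% and 0.435% are thus low for expressed genes, wherever they stand beside a gene list. The count of 270 became 128 to 201 when 1 of the 6 libraries was left out. The log2 fold changes of the 8 genes ran from -0.11 to 0.28 with a median of -0.01, the same as the median of all tested genes (-0.01). All 8 had a 95% interval inside a 2-fold change in either direction. These intervals are of counts that include the background reads of this set. Dhcr7 lay at the background level of 2.79 CPM per kb and Lss close above it, at 3.04 to 3.65 CPM per kb. For these genes the interval does not bound the change of the transcript itself. Less RNA per cell and fewer cells of a type cannot be told apart in bulk libraries.

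**Figure D1:**
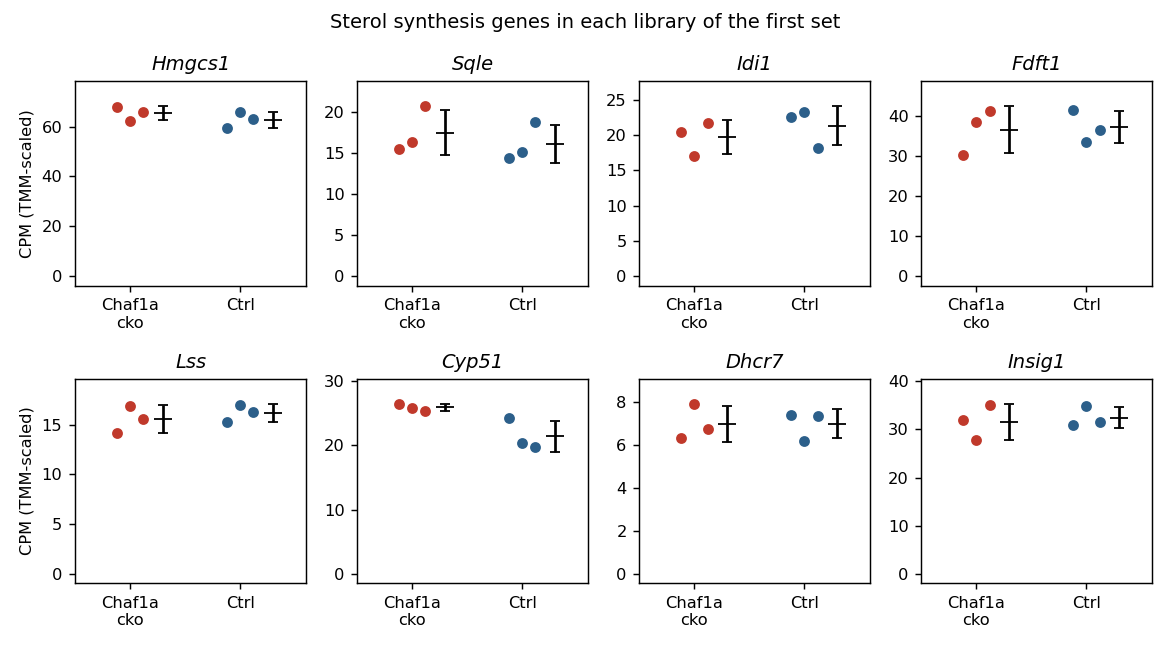
Level of each of the 8 sterol genes in the first set, in TMM-scaled CPM from 0 on a linear axis, with 1 point per library (Chaf1a cko red, Ctrl blue) and the mean ± SD of 3 libraries beside each group. The groups overlap in every panel except Cyp51, where the Chaf1a cko libraries (25.4 to 26.4 CPM) lie above the Ctrl libraries (19.7 to 24.2 CPM).

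Of the mevalonate and isoprenoid enzymes, Hmgcs1, the cytosolic synthase that makes HMG-CoA, was the most abundant. Its 3 Chaf1a cko libraries held 67.9, 62.4 and 65.7 CPM, in the order of replicates 1 to 3 used throughout, and its Ctrl libraries 59.4, 65.9 and 63.0 CPM. The groups overlapped, with a log2 fold change of 0.06 and an SE of 0.09 (adjusted p 0.907 in edgeR). For Hmgcs1 the 95% interval was -0.13 to 0.25 on the log2 scale, or 0.913-fold to 1.19-fold, the narrowest of the 8. Idi1, the isomerase that interconverts the isoprene building blocks, was at 20.4, 17.0 and 21.7 CPM in Chaf1a cko and 22.5, 23.2 and 18.1 CPM in Ctrl. Its ranges overlapped too, with a log2 fold change of -0.11 (SE 0.17, adjusted p 0.902 in edgeR).

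The 3 enzymes that build and close squalene were level between the labels within their spread. Fdft1, squalene synthase and the branch point from isoprenoids into sterols, was at 30.2, 38.6 and 41.4 CPM in Chaf1a cko and 41.7, 33.7 and 36.6 CPM in Ctrl (log2 fold change -0.02, SE 0.14, adjusted p 0.983 in edgeR). Sqle, the epoxidase that is a control point of the route, was at 15.5, 16.4 and 20.7 CPM in Chaf1a cko and 14.4, 15.2 and 18.8 CPM in Ctrl (0.12, SE 0.18, adjusted p 0.905). Lss, which cyclises the epoxide to lanosterol, was at 14.2, 16.9 and 15.6 CPM in Chaf1a cko and 15.2, 17.0 and 16.3 CPM in Ctrl (-0.06, SE 0.17, adjusted p 0.958). In Fdft1 the lowest library was Chaf1a cko replicate 1 and the highest was Ctrl replicate 1, and the sign of its fold change turned without either (0.10 without Chaf1a cko replicate 1 and 0.06 without Ctrl replicate 1). Fdft1 shares 774 exon bases with Ctsb, a cathepsin gene on the opposite strand that rose in Chaf1a cko (173 ± 0.141 CPM, against 136 ± 10.97 CPM in Ctrl, SD, n = 3 each, adjusted p 0.0118 in edgeR), and without the strand setting of the counting their reads cannot be told apart.

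Cyp51, the demethylase that starts the conversion of lanosterol, was the only one of the 8 whose groups did not overlap in the first set. Chaf1a cko libraries held 26.4, 25.9 and 25.4 CPM, against 24.2, 20.4 and 19.7 CPM in Ctrl libraries, so every Chaf1a cko library was above every Ctrl library. The log2 fold change was 0.28 (SE 0.15, 95% interval -0.03 to 0.58) with an unadjusted p of 0.0754 and an adjusted p of 0.563 in edgeR, and adjusted p-values under all alternatives ran from 0.450 to 0.769. Over all tested genes 16.2% had groups that did not overlap (8.33% higher and 7.85% lower), so 1 of 8 is no more than the background. Dhcr7, the reductase that yields cholesterol in the last step of its branch, was at 6.31, 7.91 and 6.75 CPM in Chaf1a cko and 7.42, 6.21 and 7.37 CPM in Ctrl (log2 fold change 0.00, SE 0.24, adjusted p 1.00 in edgeR). Its level per kb was 2.24 to 2.81 in Chaf1a cko and 2.20 to 2.64 in Ctrl, at the background level of 2.79, so a change in Dhcr7 was not detectable above background in this table. Insig1, which retains the SCAP and SREBP complex in the endoplasmic reticulum, was at 32.0, 27.7 and 35.1 CPM in Chaf1a cko and 30.9, 35.0 and 31.6 CPM in Ctrl (-0.04, SE 0.13, adjusted p 0.961).

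**Figure D2:**
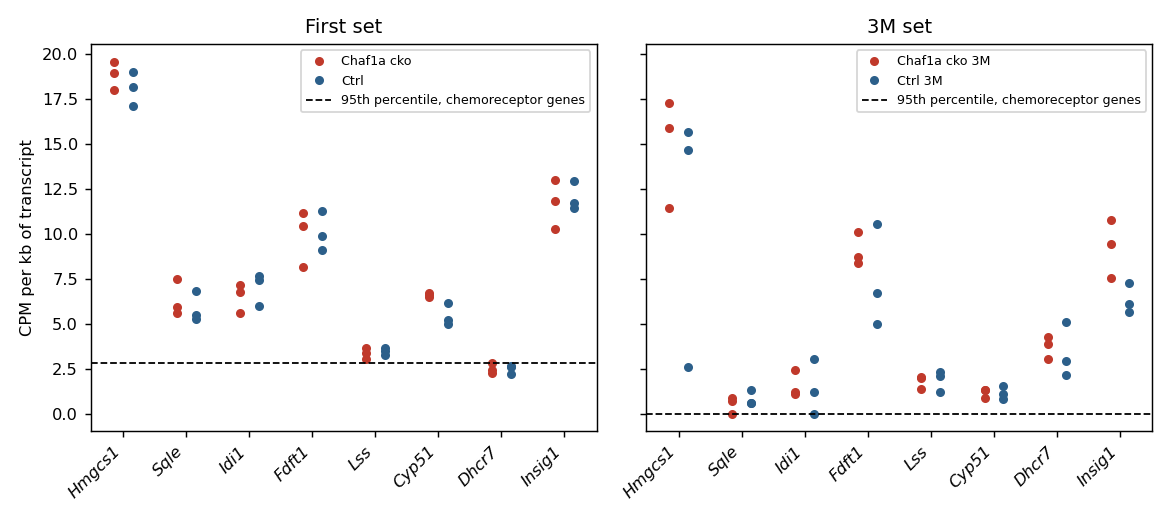
Levels of the 8 genes in CPM per kb of transcript on a linear axis, with 1 point per library (Chaf1a cko red and left, Ctrl blue and right, for each gene) and a dashed line at the 95th percentile of chemoreceptor genes. In the first set 7 of the 8 genes lie above the line in all 6 libraries and Dhcr7 straddles it, and in the 3M set the line is at 0 and Sqle and Idi1 each have 1 library at 0.

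Per kb of transcript, the order of the genes in the first set was headed by Hmgcs1, at 18.9 ± 0.793 CPM per kb in Chaf1a cko and 18.1 ± 0.945 in Ctrl (SD, n = 3 each). Insig1 followed at 11.7 ± 1.36 CPM per kb in Chaf1a cko and 12.04 ± 0.808 in Ctrl, and Fdft1 at 9.93 ± 1.57 in Chaf1a cko and 10.1 ± 1.09 in Ctrl. The libraries of these neighbours overlapped within Chaf1a cko but not within Ctrl. Cyp51 (6.60 ± 0.128 CPM per kb in Chaf1a cko and 5.46 ± 0.616 in Ctrl), Idi1 (6.52 ± 0.810 in Chaf1a cko and 7.04 ± 0.911 in Ctrl) and Sqle (6.35 ± 1.01 in Chaf1a cko and 5.85 ± 0.847 in Ctrl) followed with neighbouring libraries that overlapped. Lowest were Lss, at 3.34 ± 0.296 CPM per kb in Chaf1a cko and 3.47 ± 0.191 in Ctrl, and Dhcr7, at 2.48 ± 0.294 CPM per kb in Chaf1a cko and 2.49 ± 0.244 in Ctrl. The coefficient of variation of the 8 genes' CPM was 1.94% to 15.9% in Chaf1a cko and 5.22% to 14.5% in Ctrl.

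In the 3M set, too, 0 of the 8 genes passed the test between Chaf1a cko 3M and Ctrl 3M libraries, and the spread between libraries was far wider. With the same edgeR test 0 rose, 0 fell and 0 had an unadjusted p under 0.05, and DESeq2 called 0. Over all 13925 genes tested the count was 2, or 0.0144% (0.00718% in each direction), and 6.93% had an unadjusted p under 0.05. That count became 0 to 5 when 1 library was left out. Log2 fold changes ran from -0.68 to 0.54 with a median of 0.15, against -0.02 over all tested genes, and the median was 0.00 without Ctrl 3M replicate 3. The 95% interval lay inside a 2-fold change in either direction for 2 of the 8, Fdft1 and Lss, so for the other 6 the interval held a 2-fold difference in at least 1 direction. Per kb of transcript, Hmgcs1 was again highest in Chaf1a cko 3M, at 14.9 ± 3.07 CPM per kb, followed by Insig1 at 9.25 ± 1.61 and Fdft1 at 9.06 ± 0.908, while in Ctrl 3M these genes were at 10.99 ± 7.28, 6.36 ± 0.826 and 7.42 ± 2.83 CPM per kb (SD, n = 3 each), and the libraries of Insig1 and Fdft1 overlapped in both groups. Sqle had the lowest mean in both groups, at 0.524 ± 0.460 CPM per kb in Chaf1a cko 3M and 0.838 ± 0.402 in Ctrl 3M, but its libraries overlapped those of Cyp51 and Idi1 in Ctrl 3M. The coefficient of variation was 10.02% to 87.7% in Chaf1a cko 3M and 13.0% to 108% in Ctrl 3M.

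**Figure D3:**
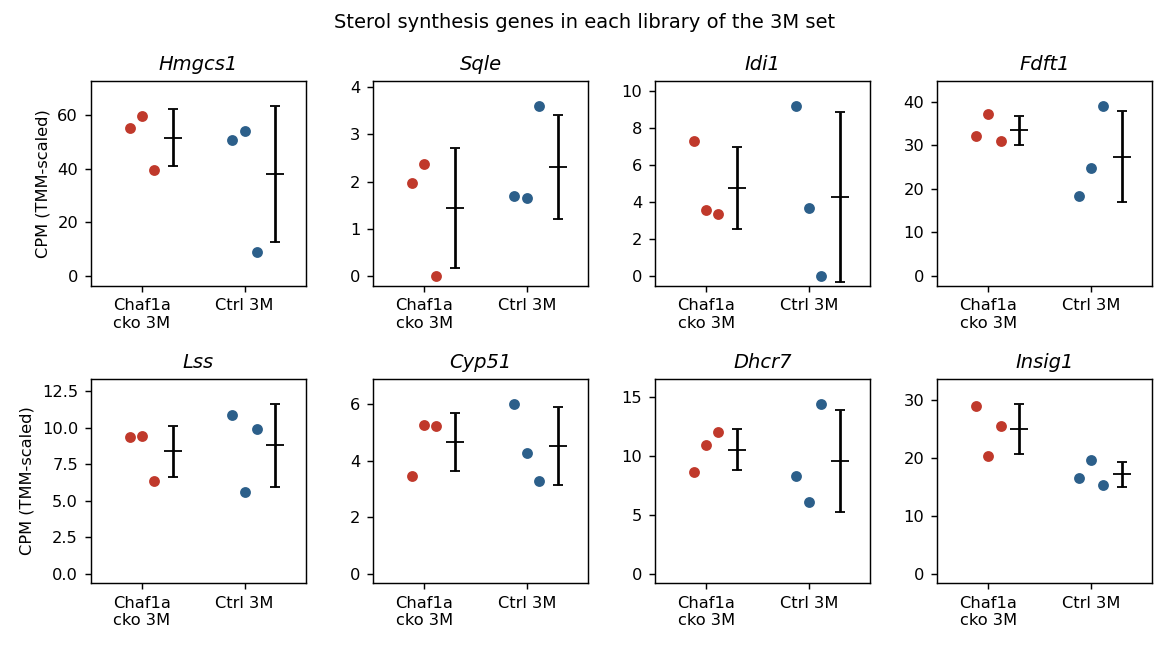
Level of each of the 8 sterol genes in the 3M set, in TMM-scaled CPM on a linear axis, with 1 point per library (Chaf1a cko 3M red, Ctrl 3M blue) and the mean ± SD of 3 libraries beside each group. Hmgcs1 and Idi1 are lowest in Ctrl 3M replicate 3 (9.02 and 0 CPM), and Insig1 alone has groups that do not overlap.

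Single libraries decided several values in the 3M set. Hmgcs1 was at 55.1, 59.9 and 39.6 CPM in Chaf1a cko 3M and at 50.9, 54.3 and 9.02 CPM in Ctrl 3M, so that Ctrl 3M replicate 3 stood far below the other 5 libraries. The log2 fold change of 0.44, with an SE of 0.62 and a 95% interval of -1.05 to 1.93 (adjusted p 0.909 in edgeR), became -0.03 without Ctrl 3M replicate 3. Idi1 was at 7.30, 3.59 and 3.37 CPM in Chaf1a cko 3M and 9.19, 3.67 and 0 CPM in Ctrl 3M, where the count of 0 in replicate 3 allows a level of up to 0.239 CPM (3 counts, counting error only). For Idi1 the log2 fold change of 0.15 (SE 1.28, adjusted p 0.990 in edgeR) became -0.44 without that library, -0.29 without Chaf1a cko 3M replicate 1 and 1.35 without Ctrl 3M replicate 1. Sqle was at 1.97, 2.37 and 0 CPM in Chaf1a cko 3M and 1.69, 1.66 and 3.59 CPM in Ctrl 3M (-0.68, SE 1.36, adjusted p 0.937), and the count of 0 in Chaf1a cko 3M replicate 3 allows up to 0.191 CPM. Its fold change was -0.09 without that library, -0.21 without Ctrl 3M replicate 3 and -1.25 without Chaf1a cko 3M replicate 2. Over all genes, 112 of the 13925 genes tested (0.804%) had 1 library at 0 and a mean of 50 or more counts in the other 5, against 30 of 22965 (0.131%) in the first set.

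The other enzymes overlapped between the labels in the 3M set. Fdft1 was at 32.2, 37.3 and 31.0 CPM in Chaf1a cko 3M and 18.5, 24.9 and 39.0 CPM in Ctrl 3M (log2 fold change 0.29, SE 0.30, adjusted p 0.869 in edgeR). It was 0.07 without Ctrl 3M replicate 1 and 0.62 without Ctrl 3M replicate 3. Lss was at 9.36, 9.42 and 6.36 CPM in Chaf1a cko 3M and 10.9, 5.56 and 9.90 CPM in Ctrl 3M (-0.06, SE 0.40, adjusted p 0.985). Cyp51 was at 3.46, 5.26 and 5.22 CPM in Chaf1a cko 3M and 5.999, 4.26 and 3.27 CPM in Ctrl 3M (0.05, SE 0.51, adjusted p 0.991). Cyp51, whose groups did not overlap in the first set, thus had overlapping groups here. Dhcr7 was at 8.61, 10.9 and 12.02 CPM in Chaf1a cko 3M and 8.25, 6.03 and 14.4 CPM in Ctrl 3M (0.14, SE 0.41, adjusted p 0.960). Ctrl 3M replicate 3 held the highest value of 3 of the 8 genes (Sqle, Fdft1 and Dhcr7) and the lowest value of 4 (Hmgcs1, Idi1, Cyp51 and Insig1).

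Insig1 had the clearest separation among the 8 in the 3M set, at 29.0, 20.4 and 25.4 CPM in Chaf1a cko 3M and 16.5, 19.6 and 15.3 CPM in Ctrl 3M. Every Chaf1a cko 3M library was above every Ctrl 3M library, though the nearest pair differed by less than the spread within either group. The log2 fold change was 0.54 (SE 0.26, 95% interval -0.04 to 1.12), with an unadjusted p of 0.0658 and an adjusted p of 0.731 in edgeR, and adjusted p-values under all alternatives ran from 0.592 to 0.995. Groups that did not overlap made up 14.1% of all genes tested in this set (7.21% higher and 6.89% lower), so 1 of 8 is again no more than the background. The summed level of 7 macrophage markers was 223 to 271 CPM in Chaf1a cko 3M and 367 to 408 CPM in Ctrl 3M, and that of the 8 cardiomyocyte markers was higher in every Chaf1a cko 3M library, as given above. By gene, 5 of the 7 macrophage markers had a negative log2 fold change and 2 a positive one. Of the 8 cardiomyocyte markers 5 had a positive log2 fold change and 3 a negative one, with a median of 0.06. No macrophage or cardiomyocyte marker passed the test, and the part of either in the Insig1 values was not tested.

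**Figure D4:**
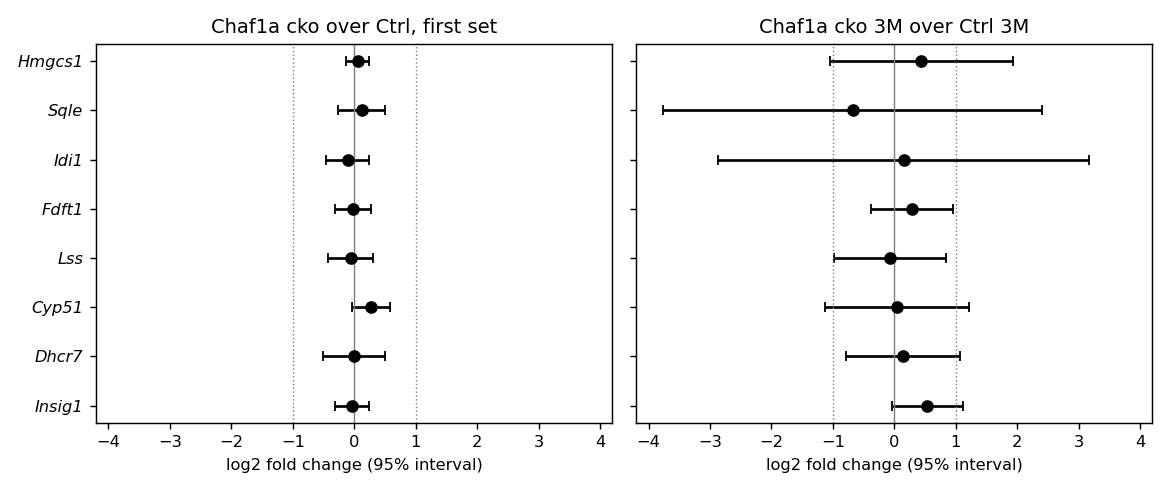
Log2 fold change (points) and 95% interval (bars) of the 8 genes for Chaf1a cko over Ctrl in the first set (left) and Chaf1a cko 3M over Ctrl 3M (right), with dotted lines at a 2-fold change. All 8 intervals on the left and 2 on the right lie inside the dotted lines, and all 16 include 0.

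The difference of the genotype effect between the sets was tested as the interaction in a fit of all 12 libraries. It passed for 0 of the 8 genes, and for 15 of all 22803 genes tested (0.0658%), and DESeq2 was not run on this difference. Insig1 had the smallest unadjusted p, 0.0325, with a difference of 0.62 on the log2 scale (3M set minus first set, SE 0.25, adjusted p 0.526 in edgeR), and it was the only one of the 8 with an unadjusted p under 0.05. For Hmgcs1 the difference was 0.41 (SE 0.66) and for Cyp51 it was -0.19 (SE 0.35). The fit shared the dispersion of each gene between the sets, though the 3M libraries spread more widely. For Cyp51 the SE of 0.35 was below its SE of 0.51 in the 3M set alone. For Insig1 the SE of 0.25 was below its 0.26 there. The unadjusted p-values of this test, that of Insig1 included, may therefore be too small. Levels were not compared between the tables, whose background reads differ. Those reads also enter the first-set fold changes, so the difference of effects is not free of them, least of all for Dhcr7 and Lss.

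Across the rest of the sterol pathway, 3 of 61 listed genes changed in the first set: Hsd17b7 and Lrp1 fell and Scd2 rose in Chaf1a cko. These 3 are 4.92% of the listed genes, against 1.18% of all tested genes, which include many at the background level. With at least 10 CPM required in at least 3 libraries, 366 of all genes were called, from fewer genes tested, and 3 of the listed genes. Whether the lists held more calls than equally expressed genes was not tested. Of the 61, 7 (11.5%) had an unadjusted p under 0.05, against 10.1% of all tested genes. Hsd17b7, a keto-reductase of the steps after lanosterol, was at 20.4, 18.1 and 17.7 CPM in Chaf1a cko and 31.4, 34.5 and 24.6 CPM in Ctrl, with no overlap (log2 fold change -0.69, SE 0.16, adjusted p 0.0387 in edgeR). It was the 1 of 9 other sterol ring enzymes that passed, and the median log2 fold change of that list was 0.05. The call of Hsd17b7 was kept without Ctrl replicate 3 (adjusted p 0.0226) and lost when any of the other 5 libraries was left out (adjusted p up to 0.241), while its log2 fold change stayed between -0.82 and -0.58 over the 6. The summed cardiomyocyte and fibroblast markers were lower in the same libraries with no overlap between the labels, though some markers of each list went the other way. They are given with the library totals and with Lrp1, and their part in the Hsd17b7 value was not tested.

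Of 7 other mevalonate and isoprenoid enzymes 0 passed in the first set, with a median log2 fold change of 0.15. Ggps1, which makes the geranylgeranyl unit used to anchor proteins in membranes, averaged 37.3 ± 0.676 CPM in Chaf1a cko and 33.5 ± 4.63 CPM in Ctrl (SD, n = 3 each, adjusted p 0.779 in edgeR). Of 10 genes of the SREBP machinery 0 passed, with a median of -0.10. Srebf2, the member of the SREBP genes mainly tied to cholesterol synthesis, was at 62.8, 73.9 and 67.0 CPM in Chaf1a cko and 74.6, 72.6 and 73.6 CPM in Ctrl (-0.12, SE 0.09, adjusted p 0.745 in edgeR). Srebf1, mainly tied to fatty acid synthesis, had a log2 fold change of 0.21 (SE 0.13, adjusted p 0.662), and Mbtps1, the Golgi protease that makes the opening cut in SREBP, one of -0.09 (adjusted p 0.819).

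Among 14 genes of sterol uptake and trafficking, 1 fell and 0 rose in the first set, with a median of 0.00. Lrp1, a large receptor that clears lipoprotein remnants and many other ligands, was at 181, 185 and 179 CPM in Chaf1a cko and 229, 211 and 212 CPM in Ctrl, with no overlap (log2 fold change -0.26, SE 0.06, adjusted p 0.0281 in edgeR). The call of Lrp1 was lost when any 1 of the 6 libraries was left out (adjusted p 0.0698 to 0.157), while its log2 fold change stayed between -0.29 and -0.22. In the same libraries 5 of 8 fibroblast markers fell and 0 rose, against 0.435% of all tested genes that fell, and the summed level of the 8 was 2951 to 2977 CPM in Chaf1a cko and 3540 to 3649 CPM in Ctrl. Of the 8, 1 had a positive log2 fold change (0.63) and was higher with no overlap, as were 8.33% of all tested genes, though not past the threshold. The part of fibroblast RNA in the Lrp1 value was not tested.

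Of 11 genes of fatty acid synthesis under SREBP, 1 rose and 0 fell in the first set, with a median of 0.04. Scd2, a stearoyl-CoA desaturase that introduces a double bond into fatty acids, was at 336, 370 and 356 CPM in Chaf1a cko and 248, 274 and 275 CPM in Ctrl, with every Chaf1a cko library above every Ctrl library (0.41, SE 0.06, adjusted p 0.000331 in edgeR). Its call held under each of the 13 alternatives, leaving out any library included, with adjusted p-values of 2.0e-08 to 0.00876. In these libraries 4 of 10 mitosis genes rose and 0 fell, against 0.74% of all tested genes that rose, with a summed level of 1590 to 1629 CPM in Chaf1a cko and 1248 to 1264 CPM in Ctrl, and the part of dividing cells in the Scd2 value was not tested. Of 10 genes of LXR signalling and sterol efflux 0 passed, with a median of 0.08. Abca1, the exporter of cholesterol to apolipoprotein, averaged 334 ± 7.16 CPM in Chaf1a cko and 324 ± 10.4 CPM in Ctrl (adjusted p 0.856 in edgeR), and Apoe, a ligand of lipoprotein receptors, averaged 223 ± 10.5 CPM in Chaf1a cko and 222 ± 14.02 CPM in Ctrl (SD, n = 3 each).

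**Figure D5:**
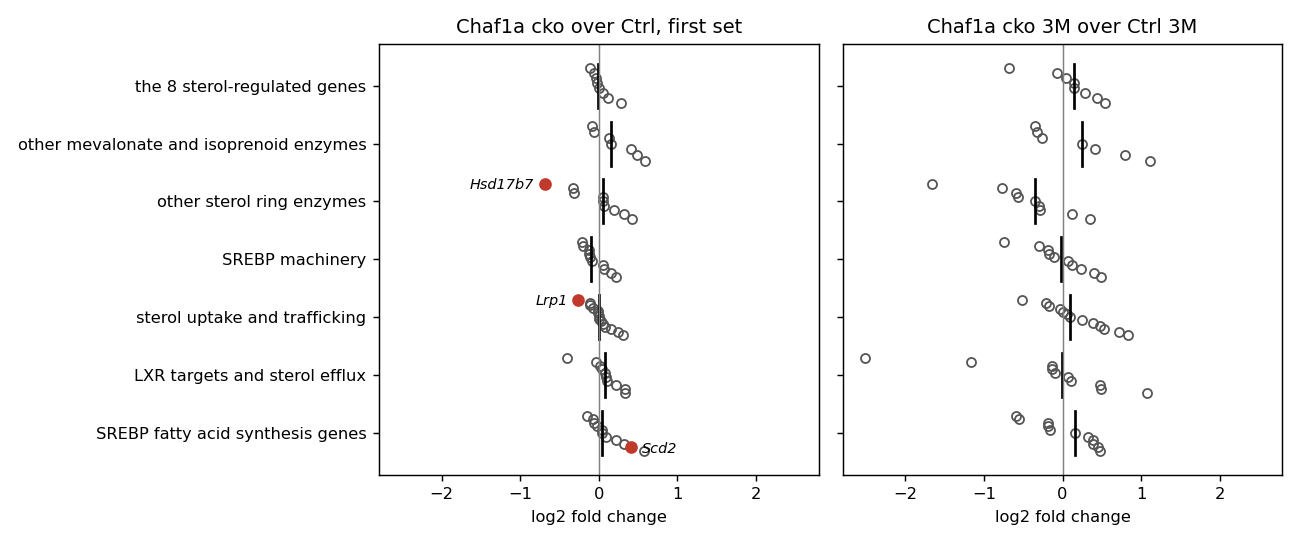
Log2 fold changes of the 8 genes and of 6 lists of related genes in the first set (left) and the 3M set (right), 1 circle per gene tested, with a black bar at each list's median and filled red circles for adjusted p under 0.05 in edgeR. The 3 filled circles are Hsd17b7, Lrp1 and Scd2 in the first set, and the 3M panel has none.

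In the 3M set 0 of the 60 genes of these 6 lists that could be tested passed, with edgeR and with DESeq2, and 7 (11.7%) had an unadjusted p under 0.05, against 6.93% of all tested genes. Scd2 was at 0, 19.6 and 20.1 CPM in Chaf1a cko 3M and 19.0, 19.2 and 20.5 CPM in Ctrl 3M, and its log2 fold change of -0.56 (SE 1.32, adjusted p 0.951 in edgeR) became 0.02 without Chaf1a cko 3M replicate 1, the library listed at 0. Hsd17b7 was at 5.15, 4.62 and 0 CPM in Chaf1a cko 3M and 4.12, 2.84 and 7.50 CPM in Ctrl 3M (-0.57, SE 1.26, adjusted p 0.946), and 0.02 without Chaf1a cko 3M replicate 3. Lrp1 was at 105, 138 and 132 CPM in Chaf1a cko 3M and 140.5, 122 and 121 CPM in Ctrl 3M (-0.03, SE 0.19, adjusted p 0.984), with overlapping groups. Srebf1 averaged 41.5 ± 7.42 CPM in Chaf1a cko 3M and 29.6 ± 13.9 CPM in Ctrl 3M, and Srebf2 23.8 ± 8.58 CPM in Chaf1a cko 3M and 21.8 ± 5.57 CPM in Ctrl 3M (SD, n = 3 each). The groups of both genes overlapped, with adjusted p-values of 0.810 and 0.956 in edgeR. Abca1 was at 96.4, 108 and 67.2 CPM in Chaf1a cko 3M and 228, 107 and 274 CPM in Ctrl 3M, where Ctrl 3M replicate 2 overlapped the Chaf1a cko 3M libraries (-1.16, SE 0.35, unadjusted p 0.0101, adjusted p 0.607). Apoe, which macrophages make among other cells, was at 364, 408 and 351 CPM in Chaf1a cko 3M and 223, 317 and 263 CPM in Ctrl 3M, with no overlap (0.49, SE 0.20, adjusted p 0.712).

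The shared profile of the 8 genes over the libraries of a set, taken as the mean of their standardized log2 CPM, did not order the libraries by label. Over the first-set libraries it was highest in Chaf1a cko replicate 3 (0.59) and lowest in Chaf1a cko replicate 1 (-0.32), with the 3 Ctrl libraries between -0.12 and 0.00. In the 3M set it was highest in Chaf1a cko 3M replicate 2 (0.45) and lowest in Ctrl 3M replicate 2 (-0.39). There Ctrl 3M replicate 1 (0.06) lay above Chaf1a cko 3M replicate 3 (-0.05). The summed level of the 8 genes, in which abundant genes weigh most, did separate the 3M labels. It was 122.9 to 149.1 CPM in Chaf1a cko 3M and 94.4 to 121.8 CPM in Ctrl 3M, and 6 of the 8 log2 fold changes were positive. In the first set the sums overlapped (212.8 to 232.4 CPM in Chaf1a cko, 211.5 to 216.6 CPM in Ctrl). The 5 genes most like the shared profile over the 6 libraries of the first set, among 10186 candidates with a mean of at least 10 CPM, were Acer2, Rad54l2, Heatr3, Micu2 and Ccdc91, with Pearson correlations of 0.964 (Ccdc91) to 0.987 (Acer2). Over the 6 libraries of the 3M set, among 9839 candidates, they were Slc25a36, Mars1, Aars, Snap47 and Luc7l, the last of them at 0.965 and Mars1 at 0.972. None of these genes belongs to the sterol lists, and none was in both sets. With 6 libraries of unlike depth in each set, the correlations are a description only.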

How the data were processed

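Stranded total RNA libraries after ribosomal RNA depletion were made from cultured cardiomyocytes, per the labels' protocols. The authors deposited raw counts per gene symbol, with no normalization. Reads were processed with FastQC, Trimmomatic and HISAT2 on mm10, per the submitters' processing notes, while the counting program, its annotation and its use of strand are not given. Samples were grouped by their titles. The 8 genes and the lists were chosen with earlier results of these data known.

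Each table was fitted alone with R 4.3.3 and edgeR 4.0.16: filterByExpr (minimum count 10, total 15), TMM, robust glmQLFit and glmQLFTest, two-sided, with Benjamini-Hochberg adjustment over all genes tested. Standard errors are the log2 fold change over the square root of F, and 95% intervals use the moderated degrees of freedom. The fit was also run on simulated counts, with known changes placed only in genes of at least 10 CPM. That run did not model background reads apart from transcripts, and no result here rests on it. Alternatives were DESeq2 1.42.0, other scalings, filters and dispersion, a replicate block and leaving out each library. Transcript lengths are the longest coding transcript of GENCODE M21. Genes named from lists were those past the threshold, otherwise the 2 most abundant, with Srebf1 and Srebf2 always, and some genes this rule names are not reported here; pattern genes were the 5 best correlated among those with a mean of at least 10 CPM.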

Additional observations from a re-analysis of the deposited data

How the results depend on the processing

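The count of 0 among the 8 genes was the same under all 13 alternatives of each set, and under all 16 of the test between sets. The median log2 fold change of the 8 genes moved by less than the spread between libraries, from -0.05 to 0.05 in the first set and from -0.00 to 0.36 in the 3M set, where the stricter filter left fewer of them tested. Genes called in the first set were 155 without robust estimation and 128 to 201 without 1 library. Genes called in the 3M set were 6 with no filter, 72 with DESeq2, 1 without robust estimation, 0 with the replicate block and 0 to 5 without 1 library. Genes of the related lists called in the first set were 1 without robust estimation, 1 with the replicate block and 1 to 2 without 1 library, Scd2 among them each time.

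Same-numbered libraries deviated together little (correlations of -0.06, 0.04 and 0.06 in the first set and 0.05, 0.06 and 0.04 in the 3M set). Differently numbered pairs ran from -0.12 to 0.08 in the first set. In the 3M set they ran from -0.06 to 0.01, below every same-numbered pair. Deviations were taken from the mean of each group, so the correlations of different pairs depend on each other. All these values are small, and the replicate block is given only here. Hsd17b7 and Lrp1 had adjusted p-values of 0.0633 and 0.0588 under it in edgeR, with log2 fold changes of -0.68 and -0.26. The sign of uncalled values turned, and the cause was not tested. In the first set Dhcr7 turned with DESeq2 size factors (-0.00026), library size alone (-0.019) and the replicate block (-0.0015), and Apoe with library size alone (-0.0078) and the stricter filter (-0.015). Without 1 library, first-set values ran from -0.020 to 0.24 for Sqle, -0.12 to 0.10 for Fdft1, -0.12 to 0.0038 for Lss, -0.10 to 0.065 for Dhcr7, -0.12 to 0.045 for Insig1 and -0.017 to 0.065 for Apoe. In the 3M set they ran from -0.032 to 0.79 for Hmgcs1, -0.44 to 1.35 for Idi1, -0.31 to 0.12 for Lss, -0.14 to 0.30 for Cyp51, -0.10 to 0.56 for Dhcr7, -0.18 to 0.35 for Srebf2, -1.06 to 0.019 for Hsd17b7, -0.11 to 0.083 for Lrp1 and -0.98 to 0.023 for Scd2.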

Other observations

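In the 3M set 10 of the 60 tested genes of the 6 related lists (16.7%) had groups that did not overlap, 6 higher and 4 lower, against 14.1% of all tested genes, and no adjusted p passed. Of the 9 other sterol ring enzymes 7 had a negative log2 fold change, with a list median of -0.36. In that list 3 were lower with no overlap, against 6.89% of all tested genes. Their summed level was 143 to 183 CPM in Chaf1a cko 3M and 189 to 238 CPM in Ctrl 3M. Of the 7 other mevalonate and isoprenoid enzymes 3 were higher with no overlap, against 7.21% of all tested genes. The genes that follow were chosen after their values were seen. Mvd, the decarboxylase that closes the mevalonate steps, was at 19.3, 17.6 and 17.6 CPM in Chaf1a cko 3M and 9.47, 6.45 and 9.18 CPM in Ctrl 3M (log2 fold change 1.12, SE 0.30, unadjusted p 0.00501, adjusted p 0.587 in edgeR). Nceh1, a hydrolase of cholesteryl esters, was at 81.6, 110 and 79.0 CPM in Chaf1a cko 3M and 28.8, 46.5 and 53.4 CPM in Ctrl 3M (log2 fold change 1.07, SE 0.27, unadjusted p 0.00345, adjusted p 0.554 in edgeR). Ch25h, which makes an oxysterol in macrophages, was at 1.87, 1.79 and 1.08 CPM in Chaf1a cko 3M and 16.6, 3.31 and 7.34 CPM in Ctrl 3M (log2 fold change -2.51, SE 0.68, unadjusted p 0.00510, adjusted p 0.587 in edgeR), in libraries whose macrophage markers summed to 223 to 271 CPM in Chaf1a cko 3M and 367 to 408 CPM in Ctrl 3M, and their part in this value was not tested. Of the 7 macrophage markers 5 had a negative log2 fold change in the 3M set and 2 a positive one. In the first set Mvd was at 4.33, 8.18 and 11.04 CPM in Chaf1a cko and 5.89, 3.88 and 5.90 CPM in Ctrl, with overlapping groups (log2 fold change 0.59, SE 0.32, unadjusted p 0.0808, adjusted p 0.575 in edgeR).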
